A study of Homo sapiens with 18 samples.

Results

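Overexpression of AP-2 transcription factors in HT-1376, a cell line derived from a human bladder carcinoma, was examined by CAGE-seq, which captures the 5′ cap of RNA and sequences the start of each transcript. The 6 libraries labelled HT-1376 were taken of the 18 in the series; the other 12 belong to the bladder cancer lines RT-112 and CAL-29, with 6 variants in each of the 3 lines. Every variant had been transduced successively with lentiviral vectors that carry a CMV promoter. The first vector was a blank control or WWOX, selected with puromycin, and the second was a blank control, AP-2α or AP-2γ, selected with G418. KK therefore carried both blank vectors, KA control and AP-2α, KC control and AP-2γ, WK WWOX and control, WA WWOX and AP-2α, and WC WWOX and AP-2γ. All 6 had thus passed through both transductions and both selections, the controls included. Each variant had 1 library in HT-1376, so a difference between a pair of libraries has no replicate of its own. The spread used below is that between pairs, namely KA and KC against KK (control background) and WA and WC against WK (WWOX background), and nothing in the labels names separate cultures. A gene was a member when its difference had the same sign in all 4 pairs.

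AP-2α and AP-2γ, encoded by TFAP2A and TFAP2C, are related transcription factors that bind GC-rich DNA as dimers and direct the differentiation of epidermis, neural crest and other ectoderm. In urothelium, KRT5, KRT6A, KRT14 and KRT17 mark basal cells, while uroplakins and KRT20 mark the luminal layer. WWOX is a cytoplasmic oxidoreductase with WW domains, through which it can hold AP-2 proteins outside the nucleus.

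The files gave 1 value per gene in CPM, reads scaled by the depth of the library. Reads on genes ranged from 13357102 to 17170660 per HT-1376 library, and 3 reads, the limit that a count of 0 allows, are worth 0.164 to 0.213 CPM. Differences are given below as log2 of CPM + 0.5 and therefore understate the change of low genes. Of 16575 genes, 11037 had at least 5 CPM in at least 1 of the 6 libraries. Across these, the K libraries and the W libraries formed separate groups: Pearson's r across genes was 0.97 between KK and KA and 0.88 between KK and WK. The libraries besides KK shared the genes that set KK apart from the other lines. Each had at least 1 CPM of all 29 genes found at 20 CPM or more in KK and below 0.5 CPM in the other lines. KK meets this by the choice of the genes, and 25 of the 29 were at 10 CPM or more in all 6 libraries. The library labelled CAL-29 KC was left out of those other lines, because its median r was 0.94 with HT-1376 libraries and 0.74 with its own line. The median difference of all genes tested was 0.16 for KA, 0.13 for WA, -0.06 for KC and -0.01 for WC, and 0.04, 0.02, -0.02 and 0.02 after TMM scaling, so single-gene values below are to be read against these shifts.

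The transduced genes were examined first. TFAP2A (chr6:10393186-10419659, minus strand; positions here and below are GRCh38 by GENCODE 44) was listed at 69.0, 101 and 56.0 CPM in KK, KA and KC and at 76.9, 69.9 and 72.9 CPM in WK, WA and WC. The value in KA was above that of KK, whereas the value in WA was below that of WK. TFAP2C (chr20:56629306-56639283, plus strand) was listed at 158, 172 and 214 CPM in the K libraries and at 69.0, 98.0 and 163 CPM in the W libraries. KC and WC, the libraries labelled AP-2γ, were the highest of their backgrounds, and the differences from control were 0.43 and 1.23. WWOX (chr16:78099400-79212667, plus strand) lay between 16.95 and 24.7 CPM in all 6 libraries, with no separation of the W libraries from the K libraries. A transcript driven by the CMV promoter starts inside the vector, so the reads of its 5′ end need not map to the gene. Whether they did was not tested for TFAP2A, TFAP2C or WWOX. These values therefore do not settle any of the labels, and the names KK to WC are used here as labels. Neither TFAP2B nor TFAP2D had a row in the table, and TFAP2E did not exceed 0.06 CPM. Of the 10 members of the AP-2 family and its cofactors that passed the filter, TFAP2C alone was higher in all 4 pairs, and none was lower. These are 10% and 0%, against 14.8% and 6.76% of all genes tested. The weakest difference of TFAP2C, 0.12 in KA, was below the median shift of all genes in that pair, 0.16.

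**Figure D1:**
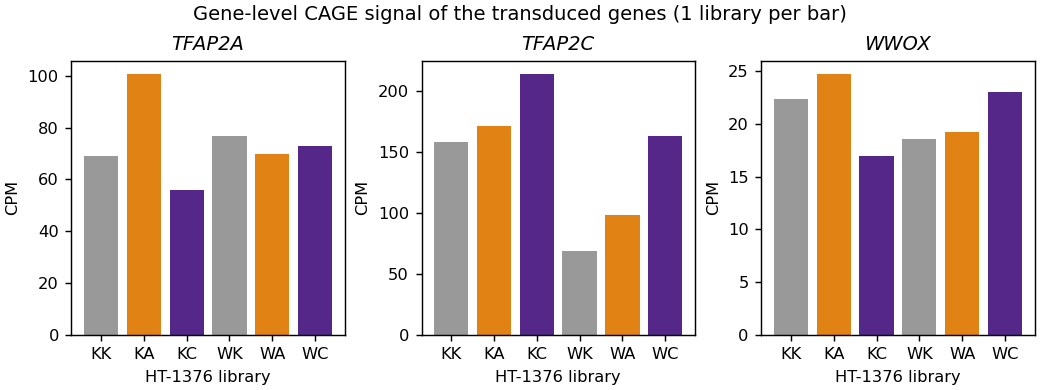
CPM of TFAP2A, TFAP2C and WWOX (y axes, from 0) in the 6 HT-1376 libraries (x axes); each bar is 1 library, so there is no error bar. TFAP2C reached 214 CPM in KC and 163 in WC against 158 in KK and 69.0 in WK, while TFAP2A was at 69.9 in WA against 76.9 in WK.

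To ask which genes differed with AP-2 irrespective of the factor and of WWOX, the 4 AP-2 libraries were compared with the 2 controls. In total, 1629 genes (14.8% of those tested) were higher and 746 (6.76%) were lower in all 4 pairs; TMM scaling gave 1460 and 1129, and quantile normalization 954 and 1471, so the balance between the directions is set by the scaling. Limma with the first transduction as pair term called 0 genes (0%) at an adjusted p below 0.05, with a smallest adjusted p of 0.215 in GAGE10; edgeR on the recovered reads called 0 and DESeq2 called 8. Without WK limma called 27, and with the K libraries alone 160. Without adjustment 376 genes were higher (3.41%) and 32 were lower (0.29%) at p below 0.05, against 345 and 71 under TMM scaling and 184 and 121 under quantile normalization. A larger size left few genes: 11 (0.0997%) were at least 2-fold higher in every pair and 0 (0%) were at least 2-fold lower. These were GAGE10, KRT5, GAS6, IGFBP5, TUBB3, GLIPR2, TRMT9B, TNC, NNMT, MMP9 and IL20. The last inside this limit was IL20, whose weakest pair differed by 1.10, and the first outside it was NEK6 with 0.94.

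KRT5 (chr12:52514575-52520530, minus strand), the keratin partner of KRT14 in basal epithelial cells, was at 0.20, 9.14 and 3.83 CPM in KK, KA and KC and at 2.06, 8.95 and 10.7 CPM in WK, WA and WC. Both controls lay below all 4 AP-2 libraries, and the lowest value, that of KK, rests on 3 reads. The pooled difference was 2.61 ± 0.44 (log2, SE; unadjusted p = 0.000297 and adjusted p = 0.998 in limma). IGFBP5 (chr2:216672105-216695549, minus strand), a secreted binding protein of insulin-like growth factors, was at 0.26, 1.76, 4.33, 1.55, 8.12 and 8.98 CPM in KK, KA, KC, WK, WA and WC, with a pooled difference of 2.13 ± 0.40. The groups did not overlap in IGFBP5, though KA with 1.76 CPM stood only just above WK with 1.55.

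GAS6 (chr13:113820549-113864076, minus strand), the ligand of the receptor tyrosine kinases AXL, TYRO3 and MERTK, was at 3.42 CPM in KK, 12.5 and 224 in KA and KC, and 7.91, 35.7 and 100.1 in WK, WA and WC. It was higher with either factor, and in both backgrounds the library labelled AP-2γ was the highest. GLIPR2 (chr9:36136536-36163913, plus strand) had the same order within each background, with 0.72, 4.82 and 28.2 CPM in KK, KA and KC and 2.12, 6.13 and 17.6 CPM in WK, WA and WC. The pooled differences were 3.31 ± 0.97 in GAS6 and 2.70 ± 0.69 in GLIPR2.

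In several of the 11 genes KK was far below WK. TNC (chr9:115019575-115118207, minus strand), the matrix glycoprotein tenascin C, was at 0.26, 11.8 and 15.2 CPM in the K libraries and at 38.4, 156 and 85.0 CPM in the W libraries. MMP9 (chr20:46008908-46016561, plus strand), a gelatinase, was at 0.07, 2.10 and 2.48 CPM in the K libraries and 19.7, 43.0 and 51.9 CPM in the W libraries. IL20 (chr1:206865623-206869223, plus strand), a cytokine of the IL-10 family, was at 0.33, 7.83 and 12.7 CPM in KK, KA and KC and at 3.67, 8.44 and 9.48 CPM in WK, WA and WC. For TNC and MMP9 the control WK exceeded both AP-2 libraries of the control background, so the 4 pairs share a direction while the groups overlap. The same was true of TUBB3, a neuronal β-tubulin, with 0.39, 3.06 and 6.45 CPM in the K libraries and 8.72, 31.8 and 23.0 in the W libraries. NNMT (chr11:114257787-114313536, plus strand), the nicotinamide N-methyltransferase, was the most abundant of the 11, with 30.5, 201 and 494 CPM in KK, KA and KC and 192, 420 and 417 CPM in WK, WA and WC. The difference of AP-2α was 2.70 in the control background and 1.13 in the WWOX background.

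GAGE10 (chrX:49303646-49319841, plus strand) belongs to a cluster of near-identical cancer-testis genes, so the assignment of its reads to this copy is uncertain. It was listed at 0 CPM in KK and 0.46 in WK, and at 12.9 in KA, 7.80 in KC, 6.07 in WA and 12.1 in WC. The pooled difference of 3.82 ± 0.44 had the smallest p of all genes tested (adjusted p = 0.215 in limma and 0.975 in edgeR), and its size depends on the 0.5 CPM added, since KK is at 0. TRMT9B, a tRNA methyltransferase homologue, completed the 11 with 0.59, 1.93 and 8.08 CPM in the K libraries and 0.46, 3.71 and 2.36 in the W libraries. Just below the 2-fold limit, the rule for named genes added NEK6, CEMIP, EMP1 and GBP1, with weakest differences between 0.85 and 0.94.

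**Figure D2:**
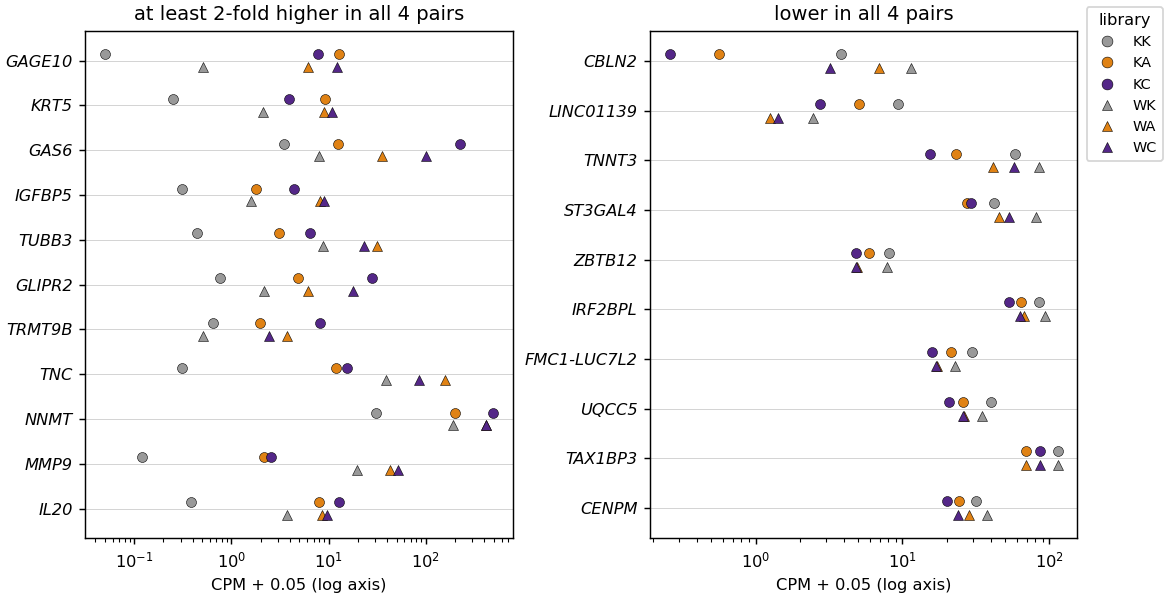
CPM + 0.05 on a log axis (x) of the 11 genes at least 2-fold higher in all 4 pairs (left) and of 10 genes lower in all 4 pairs (right); circles are the libraries with the blank first vector, triangles those with WWOX, grey the controls, orange AP-2α and purple AP-2γ, 1 library each. Each grey symbol stands to the left of the coloured symbols of the same shape on the left side, and to the right of them on the right side; TNC is at 0.26 CPM in KK and 38.4 in WK.

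The lower genes had smaller differences. CBLN2 (chr18:72536680-72638521, minus strand), a secreted synaptic organizer, led with 3.75, 0.51 and 0.21 CPM in KK, KA and KC and 11.4, 6.84 and 3.18 CPM in WK, WA and WC, a pooled difference of -1.76 ± 0.46. TNNT3 (chr11:1919703-1938706, plus strand), a fast skeletal troponin T, was at 57.9, 23.1 and 15.4 CPM in the K libraries and at 85.6, 41.4 and 57.3 CPM in the W libraries. Both controls exceeded every AP-2 library in IRF2BPL, a transcriptional regulator, with 85.5 and 93.5 CPM in the controls and 52.7 to 67.0 CPM with AP-2. TAX1BP3, a PDZ protein, was at 114 and 115 CPM in the controls and at 68.8 to 86.9 CPM with AP-2, and COX8A, a subunit of cytochrome c oxidase, at 934 and 893 CPM against 560 to 706 CPM. SYT8 and ST3GAL4, a sialyltransferase, were lower in all 4 pairs with weakest differences of -0.34 and -0.51. FMC1 and FMC1-LUC7L2, a gene and its readthrough locus, had nearly equal values (30.1 and 29.7 CPM in KK) and share tags, so they count as 1 signal. Other lower genes of the rule were LINC01139, ZBTB12, UQCC5, CENPM and ZNF488.

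The promoters of the genes with the largest differences are printed because CAGE measures starts of transcription and AP-2 recognizes a known element. The element GCCNNNGGC, which reads the same on both strands, was searched in windows of RefSeq (GRCh38.p14) that run from 250 bases before to 50 bases after a start. Of the 11 genes 8 had a window, and 2 of these (25.0%) held the element, IGFBP5 and GLIPR2; among all genes tested it was 3386 of 8632 (39.2%). The shares were 39.3% of genes higher and 40.7% of genes lower in all 4 pairs. A match is a description of letters and not evidence of binding. Shown 5′ to 3′ are the 120 bases before the start, with the element in capitals where it occurs: in IGFBP5 (chr2:216695550-216695669, minus strand) it begins 44 bases before the start, while GAS6 (chr13:113864077-113864196, minus strand) and IL20 (chr1:206865503-206865622, plus strand) hold none here.
IGFBP5: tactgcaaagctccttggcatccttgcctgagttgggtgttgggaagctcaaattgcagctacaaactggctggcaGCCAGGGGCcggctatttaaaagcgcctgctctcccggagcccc
GAS6: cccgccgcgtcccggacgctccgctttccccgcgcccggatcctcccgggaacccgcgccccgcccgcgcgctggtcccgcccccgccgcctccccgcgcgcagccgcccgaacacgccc
IL20: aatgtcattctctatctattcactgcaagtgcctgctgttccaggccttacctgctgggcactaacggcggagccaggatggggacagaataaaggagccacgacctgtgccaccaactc

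The 11 genes were next followed in the other lines, whose libraries the rule did not use. In RT-112, 6 of them passed the filter and 3 were higher in all 4 pairs (GAS6, IGFBP5 and TNC). This is 50%, against 16.9% of the 9267 genes tested there. For GAS6 the differences of KA and KC from KK in RT-112 were only 0.02 and 0.05. In CAL-29, without the library labelled KC, 7 passed and 5 were higher in the 3 pairs left (KRT5, TUBB3, GLIPR2, TNC and MMP9; 71.4%), against 9.08% of 12078 genes. TNC was the one gene of the 11 that passed the filter in all 3 lines and was higher in every pair examined. In CAL-29, however, KK and KA had 178 and 210 CPM of TNC, a difference of 0.24. WK, WA and WC had 8.23, 164 and 96.4 CPM, all below KK. There WK was also below KK in TUBB3 (6.74 against 36.5 CPM), GLIPR2 (2.87 against 8.24) and MMP9 (0 against 0.56), but not in KRT5 (24.9 against 20.9). For TUBB3 the difference of KA from KK in CAL-29 was 0.02. KRT5 had the opposite sign in RT-112, where the 4 differences ran from -0.15 to -1.43. Since pairs of a background share their control, these shares carry no test, and they rest on 6 and 7 genes.

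Basal urothelial markers often shared a direction. Of 16 members that passed the filter, 9 were higher in all 4 pairs and 1 was lower, where 14.8% and 6.76% of all genes did so; TMM scaling and quantile normalization each gave 8 and 1. The median pooled difference of the list was 0.55 (0.06 over all genes). Besides KRT5 these included KRT6A, KRT6B, KRT17, CD44, DSC3, COL17A1 and CDH3. KRT6A was at 0.13, 1.48 and 1.70 CPM in the K libraries and at 34.0, 68.3 and 41.6 CPM in the W libraries. KRT17 was at 2.70, 10.95 and 16.9 CPM and at 35.2, 38.02 and 48.5 CPM. For both keratins the step from KK to WK was larger than any step with AP-2, so the common sign came with a wide gap between the controls, and the copies of the KRT6 and KRT17 families may share reads. In CD44, DSC3 and COL17A1 the weakest of the 4 differences was at most 0.05, so their common sign is not larger than the spread between pairs. CDH3, P-cadherin, was at 75.6, 98.6 and 146 CPM in the K libraries and at 214, 269 and 286 CPM in the W libraries. TRIM29 was the exception, with 149, 89.8 and 89.3 CPM and 182, 160 and 150 CPM, lower in each pair. KRT14 itself was higher with AP-2α (535 against 346 CPM in the K libraries and 766 against 447 in the W libraries) and nearly level with AP-2γ (372 and 421 CPM).

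Luminal markers did not share this direction. Of 12 that passed the filter, 0 were higher and 1 was lower in all 4 pairs (ELF3), with a list median of -0.18. The shares, 0% and 8.33%, compare with 14.8% and 6.76% of all genes. TMM scaling gave 0 higher and 3 lower (25%, against 10.2% of all genes). Quantile normalization gave 0 and 2 (16.7%, against 13.3%). ELF3, an epithelial ETS factor, was at 103, 38.9 and 71.8 CPM in KK, KA and KC and at 70.3, 46.3 and 61.3 CPM in WK, WA and WC. GATA3, KRT8, KRT18 and KRT7 had differences between -0.24 and 0.67 in all pairs, and UPK1B was at 774 CPM in KK, 946 in KA and 390 in KC. KRT20, UPK1A and UPK3A did not exceed 0.11 CPM in any library, so these 3 markers were not detectable at this depth. The summed CPM of the 19 luminal markers in the table was 15870 in KK and 9973 to 11100 in the W libraries, and that of the basal markers 1623 in KK and 2387 to 2935 in the W libraries; this shift between the backgrounds accompanies the marker values above and its part in them was not tested. In bulk RNA, fewer cells of a type and less RNA per cell cannot be told apart. Markers of other cells were few: of 10 immune, 8 endothelial and 10 fibroblast markers, 1, 1 and 3 passed the filter (CD68, ENG, COL1A1, COL1A2 and THY1), PTPRC and PECAM1 had no row, and the summed CPM of the fibroblast list ran from 5.40 in KK to 64.0 in WA, whose part in the matrix genes was not tested.

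**Figure D3:**
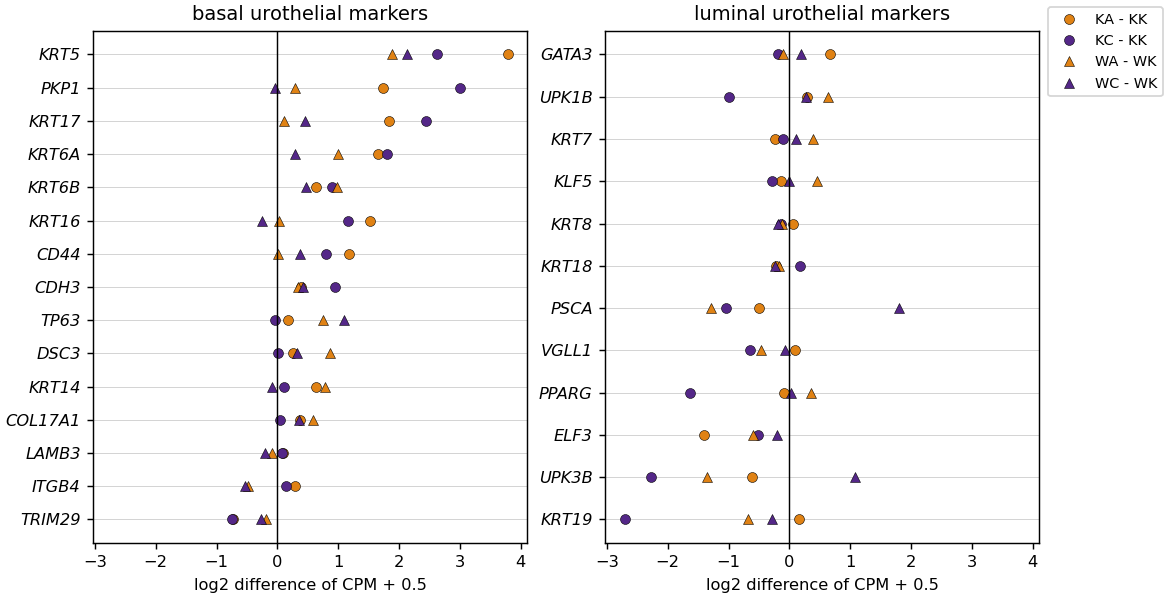
Log2 differences of CPM + 0.5 (x axis) of basal (left) and luminal (right) urothelial markers in the 4 pairs; circles are pairs of the control background, triangles of the WWOX background, orange AP-2α and purple AP-2γ, 1 pair of libraries per symbol. Of the basal markers drawn (1 tested member is not shown) 8 of 15 have all 4 symbols to the right of 0, and of the luminal markers 0 of 12.

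Genes commonly described as AP-2 targets were mixed. Of 12 that passed the filter, 3 were higher in all 4 pairs (KRT5, IGFBP5 and MT2A; 25%, against 14.8% of all genes) and 0 were lower, with a median of 0.26. ERBB2, the receptor often linked to AP-2, was at 99.7, 90.7 and 99.9 CPM in the K libraries and at 61.8, 49.9 and 81.0 CPM in the W libraries, and CDH1 had differences of both signs. No ERBB receptor or ligand of the 9 tested had a common sign. AREG, the EGFR ligand amphiregulin, was at 68.3, 195 and 190 CPM in the K libraries but at 288, 381 and 280 CPM in the W libraries.

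Metallothioneins, which bind zinc and copper, included 3 of 5 members higher in all 4 pairs (4 of 5 after TMM scaling), against 14.8% of all genes (13.2% after TMM scaling). MT1G was at 57.2, 362 and 420 CPM in KK, KA and KC and at 52.2, 229 and 73.9 CPM in WK, WA and WC, a pooled difference of 2.03 ± 0.47 (unadjusted p = 0.00234 in limma). In MT1G both controls lay below every AP-2 library. MT2A was at 2243, 3544 and 8130.0 CPM and at 1894, 2291 and 2649 CPM, and MT1F at 62.3 CPM in KK and 145 in KC and at 68.6 CPM in WK and 130 in WC. These genes are near-identical copies, so reads may be divided among them.

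Of inflammatory genes 4 of 16 had a common sign, all higher (25%, against 14.8% of all genes), and 3 of 16 after TMM scaling or quantile normalization. CCL2, a monocyte chemokine, was at 2.76, 24.5 and 22.6 CPM in the K libraries and at 14.1, 121 and 14.7 CPM in the W libraries. ICAM1 was at 8.81, 20.7 and 46.4 CPM and at 33.4, 46.3 and 47.1 CPM, and TNFAIP3, an inhibitor of NF-κB signalling, at 25.2, 59.0 and 62.0 CPM and at 74.5, 95.0 and 106 CPM. TNF was the other member of the 4, and in CCL2 and TNF the weakest difference was 0.06 or less. Among 16 TGF-β and BMP genes, 2 were higher and 1 was lower in all 4 pairs. These are 12.5% and 6.25%, near the 14.8% and 6.76% of all genes. TGFBR1 was 1 of the 2, with 6.38, 18.5 and 30.8 CPM and 4.99, 8.56 and 12.4 CPM, a pooled difference of 1.40 ± 0.33. Of 24 collagens, laminins and integrins 7 were higher in all 4 pairs (29.2%, against 14.8% of all genes) and 0 were lower; ITGB1, the common β1 chain, was at 34.4, 58.3 and 122 CPM and at 32.4, 52.2 and 36.8 CPM.

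The difference between the factors was then taken within each background, KC against KA and WC against WA, which uses neither control. In 1580 genes (14.3%) AP-2γ and in 4932 genes (44.7%) AP-2α was higher in both pairs. The median of all genes was -0.20 with the CPM as deposited and -0.06 after TMM scaling, under which the shares were 23.7% and 30.6%. Limma called 0 genes (0%) at an adjusted p below 0.05 (smallest 0.407), edgeR called 0 and DESeq2 called 67, of which 63 were higher with AP-2γ. Without adjustment 250 genes were higher and 1044 were lower with AP-2γ in limma at p below 0.05, against 516 and 478 under TMM scaling and 599 and 462 under quantile normalization. At least 2-fold in both pairs, AP-2γ was higher in 86 genes (0.779%) and AP-2α in 42 (0.381%); after TMM scaling it was 116 and 15. Across the genes tested the differences of both pairs were weakly related (Pearson's r = 0.10, Spearman's rho = 0.09; genes are not independent replicates).

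Of genes higher with AP-2γ, CHI3L2 (chr1:111200771-111243440, plus strand), a chitinase-like protein, was at 0.74 CPM in KA and 7.52 in KC, and at 1.34 in WA and 17.6 in WC, a difference of 3.00 ± 0.41 (adjusted p = 0.407 in limma). The controls KK and WK, with 0.46 and 2.18 CPM, were on the side of AP-2α. SAA1 (chr11:18266260-18269977, plus strand), an acute phase protein whose values are identical to those of the overlapping pseudogene RNA5SP334, was at 12.5 and 93.7 CPM in KA and KC and at 18.8 and 77.1 CPM in WA and WC, with 14.01 and 37.5 CPM in the controls. LCN2 (chr9:128149071-128153453, plus strand), a siderophore-binding lipocalin, was at 12.9 and 73.1 CPM in KA and KC, and at 29.3 and 114 CPM in WA and WC. The controls had 24.8 and 139 CPM, so that WC lay near its control and WA far below it. SLC34A2, LINC02609, SYNPO and AKR1B15 were the others of the rule, with differences from 2.07 to 2.55.

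Of genes higher with AP-2α, PSAT1 (chr9:78297125-78330093, plus strand), an enzyme of serine synthesis, was at 70.6 CPM in KA and 17.2 in KC, and at 36.4 in WA and 14.9 in WC. The controls, with 33.5 and 28.5 CPM, stood between the factors in both backgrounds, and the difference was -1.64 ± 0.26. PEG10 (chr7:94656325-94669695, plus strand), an imprinted gene of retrotransposon origin, was at 23.3 and 4.89 CPM in KA and KC and at 28.4 and 8.77 CPM in WA and WC. COL1A2, a chain of type I collagen, was at 4.37 and 1.49 CPM and at 46.1 and 18.9 CPM, and F2RL1, a protease-activated receptor, at 16.7 and 6.67 CPM and at 12.6 and 4.66 CPM. GTF2H2, which has near-identical copies on chromosome 5, LINC02506, UBP1 and PHKA2 completed the rule.

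Interferon-stimulated genes were mostly higher with AP-2γ. Of 19 that passed the filter, 12 were higher with AP-2γ and 1 with AP-2α in both pairs, where 14.3% and 44.7% of all genes were; after TMM scaling it was 13 and 0. The list median was 0.70 against -0.20 over all genes. ISG15 was at 38.02 CPM in KA and 127 in KC, and at 78.0 in WA and 163 in WC, a difference of 1.40 ± 0.23 (unadjusted p = 0.000861 in limma). The controls lay between them, with 73.3 and 113 CPM, so that AP-2α was below and AP-2γ above the control in each background. MX1 was at 10.1 and 33.2 CPM in KA and KC and at 15.5 and 29.2 CPM in WA and WC, and RSAD2 at 0.40 and 2.55 CPM and at 1.53 and 5.42 CPM. IFI27 was at 11.4 and 95.7 CPM in KA and KC but at 152 and 200 CPM in WA and WC, where WK already had 109 CPM. Against the controls, 17 of the 19 genes were higher in KC and 19 in WC, while 8 were higher in KA and 14 in WA; of all genes 45.5%, 49%, 69.1% and 60.9% were higher in KC, WC, KA and WA.

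Genes of the integrated stress and amino acid response had the opposite direction. All 13 that passed the filter were higher with AP-2α in both pairs, 12 of 13 after TMM scaling and quantile normalization; 44.7% of all genes had this direction as deposited and 30.6% after TMM scaling. The list median was -0.49. ASNS, the asparagine synthetase, was at 44.2 CPM in KA and 22.0 in KC, and at 21.7 in WA and 8.33 in WC, with 26.1 and 12.4 CPM in the controls. PHGDH, which starts serine synthesis, was at 143 and 77.2 CPM and at 146 and 78.0 CPM, with controls of 84.8 and 107 CPM. SLC7A11, the cystine transporter, was at 18.3 and 13.6 CPM and at 19.7 and 6.68 CPM, and ATF4 at 231 and 149 CPM and at 189 and 148 CPM. Against control, these genes had a list median of 0.61 in KA and -0.55 in WC, but of -0.11 in KC and 0.02 in WA.

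Cholesterol synthesis genes were higher with AP-2α in both pairs in 10 of 16 cases and with AP-2γ in 0; TMM scaling gave 8 and 0. SQLE, the squalene epoxidase, was at 64.4 and 31.2 CPM in KA and KC and at 53.1 and 29.9 CPM in WA and WC. IDI1, the isopentenyl diphosphate isomerase, was at 22.3 and 10.9 CPM and at 18.9 and 9.26 CPM. The shares, 62.5% and 50%, compare with 44.7% and 30.6% of all genes. Proliferation genes were higher with AP-2α in both pairs in 13 of 23 cases and with AP-2γ in 0, or 10 and 0 after TMM scaling, which are 56.5% and 43.5% beside the same 44.7% and 30.6%. RRM2, a subunit of ribonucleotide reductase, was at 191 and 69.1 CPM and at 91.6 and 52.5 CPM, and AURKA, a mitotic kinase, at 70.3 and 43.9 CPM and at 53.7 and 27.5 CPM. In neither list did a member reach an adjusted p below 0.05.

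**Figure D4:**
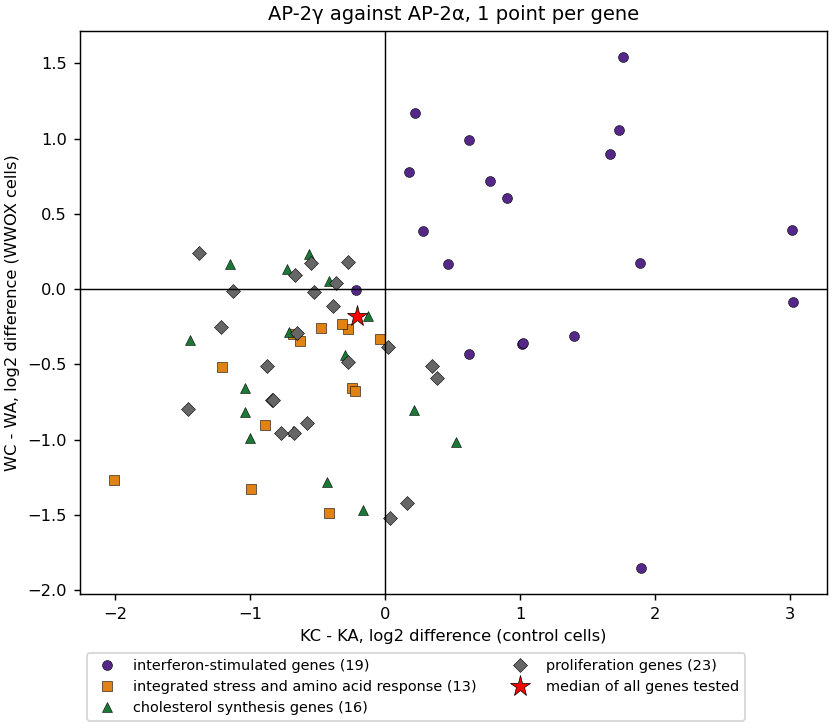
Log2 difference of AP-2γ against AP-2α in the control background (KC - KA, x axis) and in the WWOX background (WC - WA, y axis), 1 point per gene of 4 lists, each axis 1 pair of libraries. Interferon-stimulated genes lie in the upper right in 12 of 19 cases, genes of the integrated stress and amino acid response in the lower left in 13 of 13, and the star marks the median of all genes at -0.21 and -0.18.

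The direction between the factors was compared with the other lines. In RT-112, TFAP2C was at 56.2 CPM in WK, 180 in WA and 143 in WC. At gene level, which does not settle the labels, TFAP2C of RT-112 was therefore not higher in WC than in WA. The RT-112 shares below carry this limit. In HT-1376 likewise TFAP2A was at 69.9 CPM in WA and 72.9 in WC, so AP-2α and AP-2γ stand for the labels in each line. Of the 86 genes 2-fold higher with AP-2γ, 43 passed the filter in RT-112 and 16 of these (37.2%) were higher with AP-2γ in both pairs there, against 27% of all genes; in CAL-29 22 of 59 (37.3%) were higher in WC than in WA, against 23.9%. Of the 42 genes 2-fold higher with AP-2α, 3 of 20 (15.0%) were so in both pairs of RT-112, against 20.4%, and 20 of 33 (60.6%) were higher in WA than in WC of CAL-29, against 76.1%.

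Whether AP-2 acted alike with and without WWOX was tested as an interaction. Limma called 1 gene (0.00906%), IL24, at an adjusted p below 0.05, and 289 genes (2.62%) at an unadjusted p below 0.05. The signed difference was more positive in the control background in 228 of the 289 and in the WWOX background in 61. This sign does not tell which background had the larger change, since a fall from KK counts with the 61. KK was the lowest library in 206 of the 289 genes and in 1653 of all 11037, and leaving out KK or WK left an interaction that could not be fitted. Across all genes, the difference of AP-2α in one background was only weakly related to that in the other. Pearson's r was 0.10 and Spearman's rho 0.19, with the same sign in 62.1% of genes. For AP-2γ these were 0.12, 0.09 and 53.7%. Since 69.1% of all genes were higher in KA and 60.9% in WA, some agreement in sign comes with these shares alone. With 1 library per variant, the part of noise between libraries in these values was not tested.

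IL24 (chr1:206897443-206904139, plus strand), a cytokine of the IL-10 family that neighbours IL20, was at 1.25, 59.4 and 137 CPM in KK, KA and KC and at 109, 133 and 129 CPM in WK, WA and WC. A single library, KK, was far below the other 5, which ranged from 59.4 CPM in KA to 137 in KC. The interaction was -5.43 ± 0.68 (log2, SE; adjusted p = 0.0356 in limma); TMM scaling gave an adjusted p of 0.174 and edgeR 0.0717, over a range of 8.23e-10 to 1.00 among the alternatives. CXCL5, a neutrophil chemokine, FSCN1, the actin-bundling protein fascin, and RAC2, a small GTPase, also had their larger difference in the control background, without passing the adjusted threshold. CXCL5 was at 1.32, 8.74 and 12.8 CPM in KK, KA and KC and at 42.9, 23.4 and 17.6 CPM in WK, WA and WC. FSCN1 was at 2.76, 23.8 and 27.5 CPM and at 377, 409 and 283 CPM, and RAC2 at 0.66, 9.93 and 14.5 CPM and at 45.1, 46.3 and 51.0 CPM. In these genes WK was far above KK, and the differences of WA and WC from WK lay between -1.26 and 0.17.

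Groups of genes were counted in the same way. Of 17 squamous and cornified genes, 13 were higher in KA and 16 in KC than in KK, but 4 in WA and 6 in WC than in WK. Over all genes tested the shares were 69.1% in KA, 45.5% in KC, 60.9% in WA and 49% in WC, so the squamous share in KA (76.5%) was near its background. Of the 17 genes 7 had an unadjusted interaction p below 0.05 in limma, each with the more positive difference in the control background. SPRR1B, a cornified envelope precursor, was at 2.96, 20.8 and 11.3 CPM in the K libraries and at 235, 151 and 168 CPM in the W libraries. S100A9, a calcium-binding alarmin, was at 1204, 1164 and 13156 CPM in KK, KA and KC and at 12842, 9738 and 19507 CPM in WK, WA and WC. Of 16 inflammatory genes, 14 and 15 were higher in KA and KC but 9 and 5 in WA and WC, and CXCL1 was at 2.56, 13.2 and 18.9 CPM in the K libraries and at 215, 179 and 111 CPM in the W libraries. The summed CPM of the squamous list was 2374 in KK and 28580 in WK, and that of the inflammatory list 212 and 897. KA and KC share the control KK, and WA and WC share WK, so the counts within a background are not independent.

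**Figure D5:**
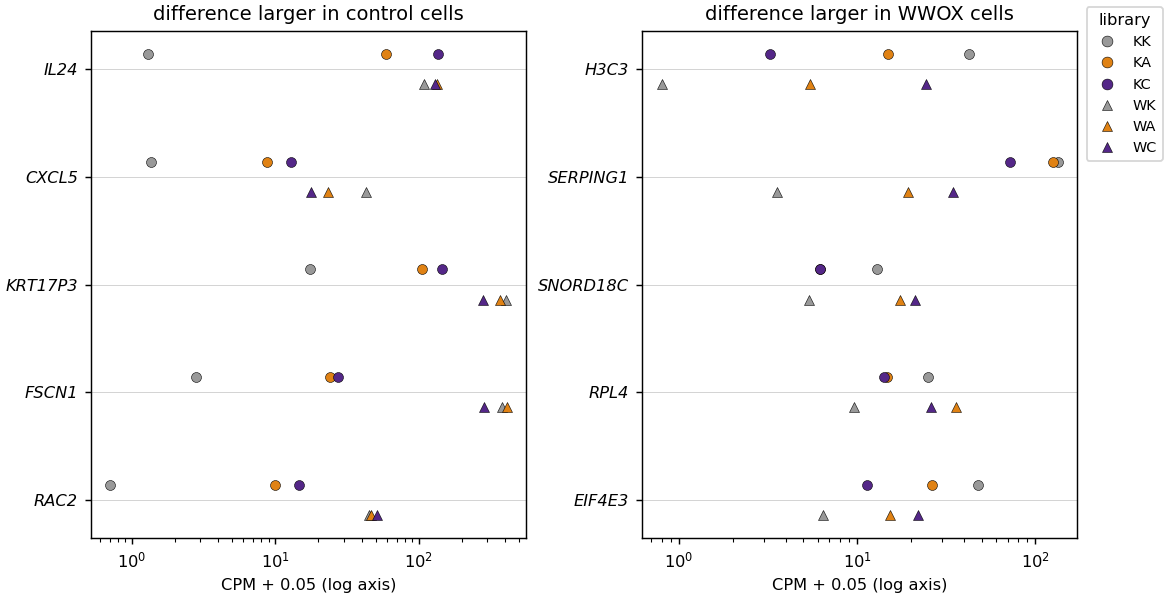
CPM + 0.05 on a log axis (x) of the 5 genes with the smallest interaction p in each direction; circles are the libraries with the blank first vector, triangles those with WWOX, grey the controls, orange AP-2α and purple AP-2γ, 1 library each. IL24 is at 1.25 CPM in KK and at 59.4 to 137 CPM in the other libraries, and H3C3 at 42.3 CPM in KK and 0.75 in WK.

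Genes with the opposite dependence were few. H3C3 (chr6:26045384-26045869, plus strand), a replication-dependent histone H3 gene, was at 42.3, 14.8 and 3.19 CPM in KK, KA and KC and at 0.75, 5.37 and 24.2 CPM in WK, WA and WC, an interaction of 5.78 ± 1.20 (adjusted p = 0.230 in limma). Histone transcripts of this class occur in near-identical copies. SERPING1 (chr11:57597387-57619171, plus strand), the inhibitor of complement C1, was at 134, 125 and 71.8 CPM and at 3.50, 19.2 and 34.5 CPM. Its level in every W library lay below every K library, and the difference was negative with AP-2 in the control background and positive in the WWOX background.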

How the data were processed

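CAGE-seq of 6 variants in each of 3 lines was used as deposited, of which the 6 HT-1376 libraries are reported. Per the labels and the study's methods, the authors sequenced single ends of 75 nt, aligned them to hg38 with BWA and HISAT2 (2.0.5), called clusters of starts with Paraclu and RECLU, and deposited CPM per gene, scaled to the depth of each library. Nearly all values (99.97% to 99.99%, within 0.0055 CPM) were whole multiples of what 1 read is worth, so reads were recovered for limma-voom, edgeR and DESeq2 as alternatives. The floors cover counting error only, whereas each SE after ± is that of the limma fit and reflects the spread between libraries.

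Genes reaching 5 CPM in 1 or more HT-1376 libraries were tested on log2(CPM + 0.5) with limma (3.58.1, trended variance, R 4.3.3), Benjamini-Hochberg adjusted over all 11037 genes: AP-2 against control with the first transduction as pair term, AP-2γ against AP-2α, and the interaction. These have 1 library per variant, so p-values measure the spread between pairs, which mixes the factors and backgrounds. edgeR (4.0.16) and DESeq2 (1.42.0) were run on the recovered reads, and TMM scaling, quantile normalization, other pseudocounts and filters, and leaving out each library were tried. The statistics were tested on simulated data. Symbols came from GENCODE 44 (16553 of 16575 IDs). Named genes were those with the same sign in all pairs and an unadjusted p below 0.05, ordered by the weakest pair, up to 15 in each direction against control and 8 between the factors, and 5 by p for the interaction. Some list members named as examples fall outside this rule and were chosen after their values were seen. A few results are not reported here. The members and lists were chosen with earlier results of these data known.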

Additional observations from a re-analysis of the deposited data

Results flagged for a closer look

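For 8 genes the difference of AP-2 from control differed between the WWOX background and the control background (log2, WWOX minus control background). IL24 is the one whose difference passed the adjusted threshold in limma, with -5.43 (adjusted p = 0.0356). The other genes stand here because KA and KC moved one way from KK and WA and WC the other way from WK; none of them passed the adjusted threshold. CXCL5 had an interaction of -3.67 and KRT17P3, a keratin pseudogene whose reads may belong to KRT17, one of -3.13. In the opposite direction H3C3 had 5.78, SERPING1 3.21, EIF4E3 2.88, SNORD18C 2.76 and RPL4 2.40. SNORD18C lies within RPL4 (chr15:66498015-66524532, minus strand), so these are not separate signals. Each value rests on 1 control library per background.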

How the results depend on the processing

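For AP-2 against control, 0 genes were called in limma and under the other scalings, filters, pseudocounts, voom and edgeR (98 to 736 at an unadjusted p below 0.05 wherever limma or edgeR called 0), but 8 in DESeq2 and 160 for KA and KC against KK only; leaving out a library gave 0 to 27, the latter without WK. For AP-2γ against AP-2α, DESeq2 called 67 and every setting of limma and edgeR 0. For the interaction 1 gene became 11 with a pseudocount of 0.05 CPM and 47 in DESeq2, and 0 with a pseudocount of 2 CPM, no filter, 5 CPM in 3 libraries, TMM scaling, quantile normalization, no trend, voom or edgeR; leaving out an AP-2 library gave 1 to 78, and without KK or WK it could not be fitted. Leaving out a library raised the 2375 genes of common sign to between 3307 and 6546 and the 11 genes at 2-fold to between 15 and 398 (398 without WK), since fewer pairs are then required; a pseudocount of 2 CPM gave 6 and quantile normalization 6. The cause of the other changes was not tested. The difference of TFAP2A changed sign to -0.034 (TMM), -0.012 (quantile) and -0.011 (edgeR), and ran from -0.19 to 0.17 without single libraries; that of WWOX changed to -0.013 (TMM) and -0.061 (quantile), and ran from -0.12 to 0.18. Of 629 values of 59 named results, 594 kept direction and side of the threshold, 21 passed it newly, 4 no longer passed it (all IL24) and 10 changed sign. Without the pair term 0 genes were called for AP-2 against control (98 at an unadjusted p below 0.05, against 408 with it); the pairs are those of the first transduction, since the labels give no replicate numbers.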

Other observations

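Immediate early genes, which respond within minutes to growth factors and stress, stood out in KA. FOS was at 2.17, 70.9 and 3.76 CPM in KK, KA and KC and at 3.44, 5.43 and 3.83 CPM in WK, WA and WC. EGR1 was at 15.7, 152 and 11.5 CPM in the K libraries and at 39.6, 74.6 and 31.8 CPM in the W libraries. Of 18 members that passed the filter, 12 were higher with AP-2α than with AP-2γ in both pairs and 1 the other way (11 and 1 after TMM scaling), where 44.7% and 14.3% of all genes were. The high FOS value is that of 1 library.

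Among mesenchymal genes, L1CAM, a cell adhesion molecule, and SPARC, a matrix protein, were the 2 of 10 with a common sign. Both were higher, a share of 20% that is near the 14.8% of all genes. The median pooled difference of the list was nevertheless 1.08 (0.06 over all genes). It was larger in the control background, with list medians of 1.465 in KA and 1.12 in KC against 0.34 in WA and 0.16 in WC. At an unadjusted p below 0.05 in limma 5 of the 10 were higher and 0 were lower, against 3.41% and 0.29% of all genes. L1CAM was at 95.0, 224 and 105 CPM in KK, KA and KC and at 10.1, 29.01 and 61.7 CPM in WK, WA and WC. MMP2, a gelatinase, was at 0.13, 2.72 and 4.89 CPM in the K libraries and at 31.0, 23.8 and 38.2 CPM in the W libraries. VIM was listed at 0 in all 6 libraries.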
